A study of Caenorhabditis elegans with 12 samples.

Results

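The genes described here are *skn-1*, *zip-2*, *zip-3*, *zip-8*, *zip-10*, *zip-11*, *cebp-1* and *cebp-2*, 8 stress-related basic leucine zipper (bZIP) transcription factor genes among the 46546 named genes of the count tables. They were picked by name with earlier results of these libraries known, so their differences are given as a description, with no test. The libraries came from N2 wild-type *C. elegans* hermaphrodites, raised from synchronized L1 larvae on *E. coli* OP50 that held either no cadmium or 20 µM cadmium chloride. Whole worms were collected as L3 larvae after 27 h or as L4 larvae after 47 h, and poly-A RNA was sequenced from 3 biological replicates per group, which makes 4 groups and 12 libraries. The groups are called unexposed L3, exposed L3, unexposed L4 and exposed L4. All of them shared strain, food and culture, and stage and exposure time differ together, so the 2 cannot be told apart.

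bZIP proteins bind DNA through a basic region next to a leucine zipper, and most of them do so as dimers, with themselves or with another bZIP protein. In the worm, several of them sit at the end of stress pathways. SKN-1, the ortholog of mammalian Nrf proteins, switches on glutathione and other detoxification genes. ZIP-2 and its partner CEBP-2 induce *irg-1* in the response to *Pseudomonas aeruginosa* and to blocked translation, and ZIP-11 acts in immunity to bacteria. CEBP-1, a C/EBP protein, lies downstream of the DLK-1 kinase in injured neurons. ZIP-10 drives a cold-shock programme, and ZIP-3 holds back the mitochondrial unfolded protein response. Much of their control acts on protein stability, translation or nuclear entry, which counts of RNA do not show.

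All positions are in the WBcel235 build. *skn-1* (WBGene00004804) lies on chromosome IV at 5651087 to 5660523, minus strand, and *zip-11* (WBGene00021082) lies on the same chromosome at 3311276 to 3313180, plus strand. Chromosome III holds *zip-2* (WBGene00019327, 833858 to 835808) and *zip-8* (WBGene00017755, 6478961 to 6481226), both on the plus strand. *zip-3* (WBGene00012330) is on the minus strand of chromosome II at 13951906 to 13957543. *zip-10* (WBGene00012101) is on the minus strand of chromosome V at 11650079 to 11650774, and 12 of its exonic bases are shared with *skp-1* on the opposite strand. Whether counting used strand is not given in the sources used here, so reads over those bases cannot be told apart. *cebp-1* (WBGene00016997) is on the minus strand of chromosome X at 1452695 to 1454000, and *cebp-2* (WBGene00016754) on the plus strand of chromosome I at 6252986 to 6253584. All 8 are protein coding. *skn-1* has 4 annotated transcripts, *zip-2* has 3, *zip-3* and *zip-8* have 2 each, and counts per gene do not separate them.

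The libraries held between 23899991 and 44766672 counts. *mtl-1*, a metallothionein gene induced by Cd, was 5.36 log2 units higher in exposed than unexposed worms at L3 (SE 0.12, adjusted p = 4.2e-06, edgeR quasi-likelihood test) and 2.99 higher at L4 (SE 0.30, adjusted p = 0.023), with every exposed library above every unexposed one. At L4 the adjusted p lay between 0.0099 and 0.116 when 1 library was left out, and leaving out unexposed replicate 1 or 3, or exposed replicate 2 or 3, ended the call. *mtl-2* and *cdr-1*, which the study also lists as induced by Cd, were 1.84 (adjusted p = 0.012) and 3.41 (adjusted p = 4.6e-06) higher at L3. At L4 they were 2.15 (adjusted p = 0.055) and 2.04 (adjusted p = 0.052) higher and missed the adjusted p limit of 0.05 with edgeR. Every exposed L4 library was nonetheless above the unexposed ones for both genes. The DESeq2 Wald test, which the study used, put both under the 0.05 limit at L4, *cdr-1* (adjusted p = 2.4e-08) and *mtl-2* (adjusted p = 0.00071). Unexposed L3 replicate 3 stood apart from the other unexposed L3 libraries in genes of the moulting cycle, in which larvae build and shed a cuticle. The summed level of *mlt-8*, *mlt-10*, *mlt-11*, *nas-37* and *noah-1* was 2351 CPM (counts relative to the scaled depth of the library) there, against 1219 and 1288 in the other unexposed L3 libraries and 2034 to 2213 in the exposed ones. The L3 differences of the 8 genes are also given without that library. At L4 the same sum was 118 to 185 CPM in unexposed libraries and 205, 213 and 352 CPM in exposed ones, the highest being replicate 1. Markers of sperm summed to 0.606 to 0.915 CPM at L3 and 586 to 684 CPM at L4. In whole worms, fewer cells of a type and less RNA per cell cannot be told apart.

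**Figure D1:**
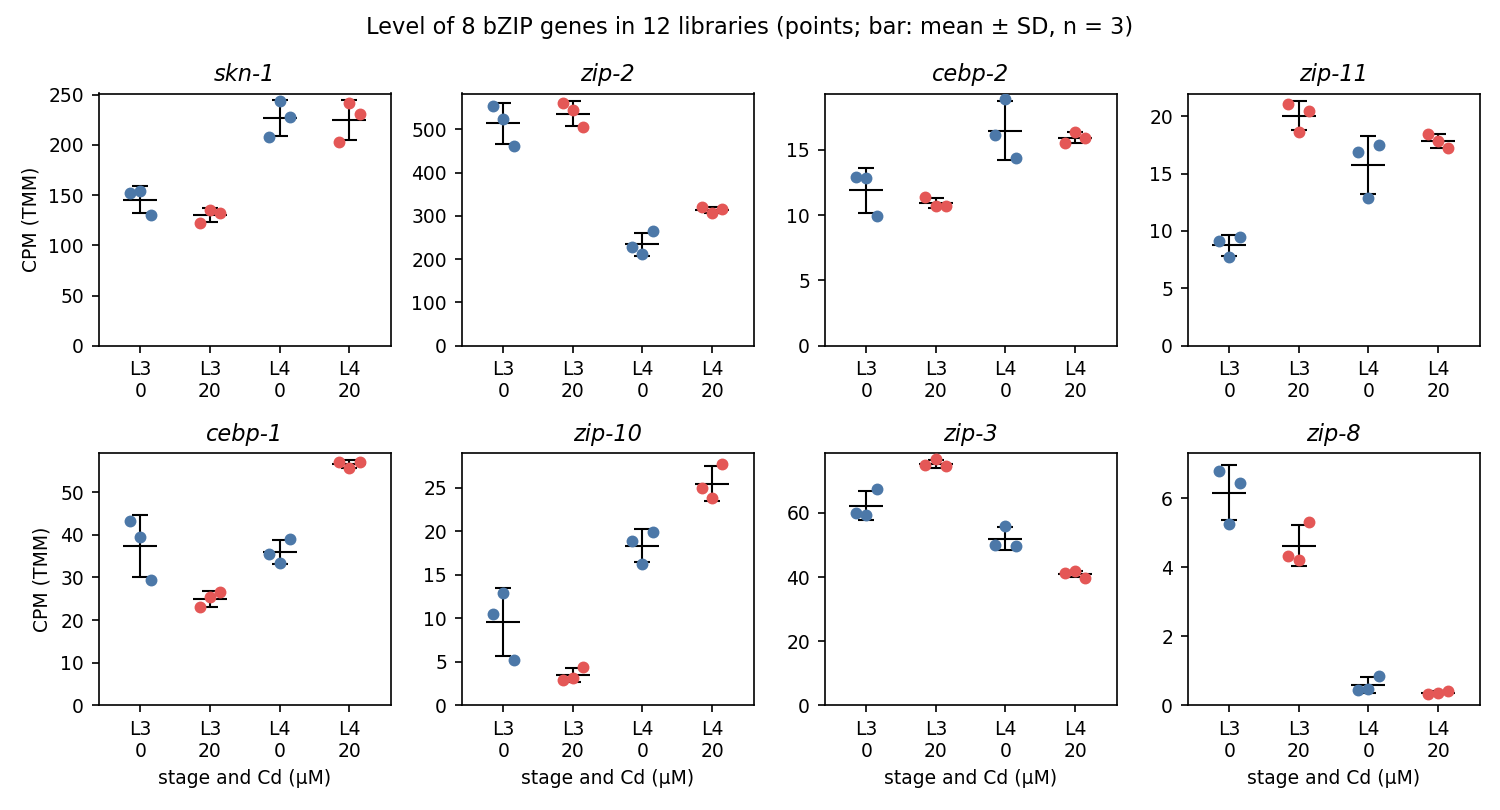
Level of each of the 8 bZIP genes in every library (vertical axis, CPM with TMM factors, from 0, each panel with its own range; horizontal axis, stage and µM Cd). Points are libraries, and the bar gives the mean ± SD of 3. The panels of *cebp-1*, *zip-10* and *zip-3* show exposed libraries on one side of the unexposed ones at L3 and on the other side at L4, while *zip-11* differs between exposed and unexposed worms mainly at L3.

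Levels were compared between genes only per length, as CPM per kb of exons. In unexposed L3 worms *zip-2* stood highest with a mean level of 321 CPM per kb, followed by *zip-3* with 48.8, *skn-1* with 44.4, *cebp-1* with 30.9, *cebp-2* with 23.4, *zip-10* with 14.8, *zip-11* with 7.10 and *zip-8* with 6.25. In unexposed L4 worms *zip-2* was still the highest, with 147 CPM per kb, and *skn-1* came next with 69.2. *zip-8* had dropped to 0.593 CPM per kb, which rested on 17 to 29 counts per library.

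*skn-1* RNA differed between the stages and hardly with Cd. Its level was 152, 154 and 130 CPM in unexposed L3 replicates 1 to 3 and 122, 135 and 132 CPM in exposed L3. At L4 it was 208, 243 and 228 CPM in unexposed worms and 203, 242 and 231 CPM in exposed worms. The exposed and unexposed ranges overlapped at both stages, while every L4 library was above every L3 library. The log2 difference with Cd was -0.16 (SE 0.088) at L3 and 0.01 (SE 0.096) at L4, and -0.23 at L3 without unexposed replicate 3. Between the stages, L4 was higher by 0.71 (SE 0.094) in unexposed and 0.79 (SE 0.089) in exposed worms.

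The regulators of SKN-1 showed no called difference with Cd. These 9 genes include *wdr-23*, *cul-4* and *ddb-1*, whose products take SKN-1 to degradation, and *nsy-1*, *sek-1* and *pmk-1*, the p38 kinase cascade that activates it. None of the 9 passed the threshold at either stage, where 3.63% of all genes tested did at L3 and 0.0432% at L4. Log2 differences of the 9 lay between -0.07 and 0.22 at L3 and between -0.19 and 0.22 at L4. *wdr-23* was at 82.5, 88.6 and 82.8 CPM in unexposed L3 and at 77.0, 83.6 and 79.9 CPM in exposed L3. *sek-1*, the MAP kinase kinase of the cascade, showed a log2 difference of 0.22 at L4 (SE 0.081, adjusted p = 0.15), the largest of the list at that stage.

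Of 11 detoxification targets of SKN-1, 10 could be tested at L3 and all 11 at L4, and none passed both limits of the threshold at either stage. Among all genes tested, 3.63% passed both at L3 and 0.0432% at L4. *gst-10*, a glutathione S-transferase gene, was at 170, 156 and 139 CPM in unexposed L3 and at 91.0, 84.5 and 99.3 CPM in exposed L3. This lower level had a log2 difference of -0.75 (SE 0.095, adjusted p = 0.012), under the fold limit, and -0.82 without unexposed replicate 3. At L4 *gst-10* was at 99.8, 68.3 and 102 CPM without Cd and at 124, 107 and 105 CPM with it, a log2 difference of 0.33 (SE 0.17, adjusted p = 0.23). The exposed libraries were thus all lower at L3 and all higher at L4. The Cd difference at L4 minus that at L3 was 1.07 for *gst-10* (SE 0.20, adjusted p = 0.0068), which was past the threshold. That value fell to between 0.90 and 0.99, under the fold limit, without unexposed L3 replicate 1, exposed L3 replicate 1, unexposed L4 replicate 2 or exposed L4 replicate 1, and to 0.96 with DESeq2 size factors.

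*gst-4*, the usual reporter gene of SKN-1 activity, was at 41.1, 41.2 and 70.8 CPM in unexposed L3 and at 62.6, 51.7 and 64.3 CPM in exposed L3, with a log2 difference of 0.23 (SE 0.22, adjusted p = 0.55). Unexposed replicate 3 was its highest L3 library, and without it the log2 difference was 0.54. *gcs-1*, which encodes the first enzyme of glutathione synthesis, had log2 differences of 0.28 (SE 0.093, adjusted p = 0.12) at L3 and -0.13 (SE 0.14, adjusted p = 0.53) at L4, and 0.38 at L3 without that library. The largest positive value of the list was that of *gst-38* at L3, 0.66 (SE 0.18, adjusted p = 0.072), and without unexposed L3 replicate 3 it was 0.90 for both *gst-38* and *gst-12*. With single libraries left out, the adjusted p at L3 lay between 0.0060 and 0.86 for *gst-4* and between 0.0068 and 0.32 for *gcs-1*. It lay between 0.00038 and 0.24 for *gst-38* and between 0.0035 and 0.65 for *gst-12*. The median over the list was 0.25 at L3 and 0.11 at L4, against 0.005 and 0.026 over all genes tested.

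*zip-2* RNA was higher at L3 than at L4. Its exposed and unexposed libraries were separate at L4 only, where those of 36.3% of all genes were. It was at 555, 524 and 463 CPM in unexposed L3 and at 560, 545 and 505 CPM in exposed L3, ranges that overlapped. In L4 worms *zip-2* was at 228, 212 and 264 CPM in unexposed and at 321, 306 and 315 CPM in exposed worms, all exposed libraries being above the unexposed ones. The log2 difference with Cd was 0.07 (SE 0.086) at L3, 0.00 there without unexposed replicate 3, and 0.44 (SE 0.11) at L4. From L3 to L4 the level was lower by 1.06 on the log2 scale (SE 0.12) in unexposed and by 0.78 (SE 0.078) in exposed worms.

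*cebp-2*, whose product acts with ZIP-2 in inducing *irg-1*, showed a stage difference in the opposite direction. It was at 12.9, 12.9 and 9.90 CPM in unexposed L3, at 11.4, 10.7 and 10.7 CPM in exposed L3, at 16.1, 18.8 and 14.4 CPM in unexposed L4 and at 15.5, 16.4 and 15.9 CPM in exposed L4. Exposed and unexposed libraries overlapped at both stages, with log2 differences of -0.11 (SE 0.13) at L3, -0.23 there without unexposed replicate 3, and -0.02 (SE 0.12) at L4. L4 was higher than L3 by 0.53 (SE 0.15) in unexposed and 0.54 (SE 0.11) in exposed worms.

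Neither response gene of ZIP-2 passed the test with Cd. *irg-1*, the infection response gene by which ZIP-2 activity is usually followed, was at 7.74, 8.53 and 6.51 CPM in unexposed L3 and at 5.76, 5.98 and 6.0 CPM in exposed L3, with a log2 difference of -0.35 (SE 0.14, adjusted p = 0.15). At L4 its libraries overlapped, with a log2 difference of 0.31 (SE 0.31, adjusted p = 0.51). *irg-2* was at 3.22, 1.45 and 3.55 CPM in unexposed L4 and at 5.82, 8.71 and 11.7 CPM in exposed L4. Every exposed L4 library was above the unexposed ones, and the log2 difference was 1.68 (SE 0.36), with an adjusted p of 0.084 that missed the threshold. The DESeq2 Wald test called it (adjusted p = 0.00016), as did the fits without the filter on low counts, with all libraries and with a replicate block.

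*zip-11* had the largest positive Cd difference of the 8 genes at L3. It was at 9.09, 7.73 and 9.46 CPM in unexposed L3 and at 21.1, 18.7 and 20.4 CPM in exposed L3. Every exposed library was above every unexposed one. The log2 difference was 1.20 (SE 0.11), or 2.30-fold, and 1.27 without unexposed replicate 3. Of the 15024 genes tested, 0.532% had a larger positive value. Nothing is read from that rank, since *zip-11* was picked with earlier results known. At L4 *zip-11* was at 16.9, 12.8 and 17.5 CPM without Cd and at 18.4, 17.9 and 17.2 CPM with it. Those libraries overlapped, and the log2 difference was 0.20 (SE 0.14). Unexposed worms were 0.92 higher at L4 than at L3 (SE 0.17), whereas exposed worms were 0.18 lower (SE 0.10), so that exposed L3 worms already had the level of L4 worms or above it. The Cd difference at L4 minus that at L3 was -1.02 (SE 0.19).

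Genes used as reporters of PMK-1 immunity gave mixed values. *irg-5* fell with Cd at L3, from 7.44, 10.2 and 8.78 CPM to 3.26, 3.78 and 4.38 CPM, a log2 difference of -1.21 (SE 0.17, adjusted p = 0.013). At L4 it was at 28.6, 10.6 and 34.3 CPM in unexposed and at 34.2, 31.5 and 28.2 CPM in exposed worms, with a log2 difference of 0.36 (SE 0.36, adjusted p = 0.51). The Cd difference at L4 minus that at L3 was 1.57 (SE 0.45, adjusted p = 0.041). With single libraries left out, the adjusted p at L3 lay between 0.0025 and 0.094, and the call ended when unexposed replicate 2 or exposed replicate 1 or 2 was missing, and with a replicate block. Without unexposed replicate 3 the value was again -1.21. The call for the Cd difference at L4 minus that at L3 was lost without 8 of the 12 libraries, over an adjusted p of 0.010 to 0.107. *irg-4* had log2 differences of -0.33 (adjusted p = 0.086) at L3 and 0.12 (adjusted p = 0.49) at L4, T24B8.5 (*sysm-1*) 0.52 (adjusted p = 0.27) and 0.78 (adjusted p = 0.29), and *irg-6*, with at most 11 counts per library, was not tested.

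*cebp-1* lay on opposite sides of the unexposed level at the 2 stages. It was at 43.3, 39.4 and 29.3 CPM in unexposed L3 and at 22.98, 25.4 and 26.6 CPM in exposed L3. All exposed L3 libraries were lower, and the nearest unexposed one was replicate 3. L4 worms had 35.5, 33.4 and 39.0 CPM without Cd and 57.1, 55.6 and 57.1 CPM with it, all exposed libraries being higher. The log2 difference was -0.57 (SE 0.15) at L3, -0.72 there without unexposed replicate 3, and 0.67 (SE 0.092) at L4, or 1.59-fold. The value at L4 minus that at L3 was 1.23 (SE 0.18). In unexposed worms the stages did not differ beyond their spread, with a log2 difference of 0.02 (SE 0.15) and overlapping libraries, while in exposed worms L4 was 1.17 higher (SE 0.088).

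Of the 7 genes of the kinase pathway upstream of CEBP-1, none was called with Cd at either stage. Over all genes tested, 3.63% were called at L3 and 0.0432% at L4. *dlk-1*, the kinase at the top of the pathway, had log2 differences of -0.04 (SE 0.083, adjusted p = 0.79) at L3 and 0.16 (SE 0.093, adjusted p = 0.29) at L4. *pmk-3*, its p38 kinase, was at 18.3, 17.6 and 21.2 CPM in unexposed L4 and at 26.1, 26.9 and 27.2 CPM in exposed L4. The exposed libraries were all higher, with a log2 difference of 0.51 (SE 0.11) and an adjusted p of 0.084. The DESeq2 Wald test gave *pmk-3* an adjusted p of 0.015 at L4, without calling it. *fsn-1*, which encodes an F-box protein that acts with RPM-1 to limit DLK-1, had a log2 difference of -0.38 (SE 0.10, adjusted p = 0.10) at L4. *fsn-1* rose from L3 to L4 by 2.77 in unexposed (adjusted p = 1.1e-07) and 2.19 in exposed worms (adjusted p = 4.1e-08), the largest stage change of the list.

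*zip-10* had the lowest Cd value of the 8 genes at L3. It was at 10.5, 12.9 and 5.22 CPM in unexposed L3 and at 2.89, 3.19 and 4.44 CPM in exposed L3. Unexposed replicate 3, which stood apart in moulting genes, was close to the exposed libraries but did not overlap them. The log2 difference was -1.43 (SE 0.34), a 2.70-fold lower level, and -1.73 without that library. The L4 libraries held it at 18.9, 16.2 and 19.9 CPM without Cd and at 24.9, 23.8 and 27.7 CPM with it, all exposed libraries being higher, with a log2 difference of 0.49 (SE 0.12). The value at L4 minus that at L3 was 1.92 (SE 0.37). From L3 to L4 its level was 1.02 higher (SE 0.29) in unexposed worms, 0.72 without unexposed L3 replicate 3, and 2.86 higher (SE 0.17) in exposed worms.

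The protease genes of the ZIP-10 cold programme were higher with Cd at L3, where *zip-10* was lower. *asp-17*, an aspartyl protease gene that ZIP-10 induces after cold shock, rose with Cd at L3, from 2.60, 1.83 and 3.89 CPM to 7.53, 7.31 and 7.87 CPM. Its log2 difference was 1.45 (SE 0.26, adjusted p = 0.021), and 1.80 without unexposed replicate 3. The *asp-17* call was lost with any 1 of the other 5 L3 libraries left out, over an adjusted p of 0.00026 to 0.109, and with a replicate block. *cpr-3*, a cathepsin B-like protease gene of the same programme, had a log2 difference of 0.31 (SE 0.094, adjusted p = 0.090) at L3. *isy-1*, whose product limits *zip-10*, was at 37.6, 42.4 and 49.9 CPM in unexposed L3 and at 48.2, 39.5 and 45.8 CPM in exposed L3, with a log2 difference of 0.04 (SE 0.12, adjusted p = 0.85). At L4 none of the 3 genes was called, where 0.0432% of all genes were. Mean levels there were 5.57 CPM without Cd and 7.31 with it for *asp-17*, and 39.0 and 46.2 for *cpr-3*, with overlapping libraries. For *isy-1* they were 63.5 and 53.7 CPM.

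*zip-3* was the mirror of *cebp-1*. It was at 59.9, 59.4 and 67.5 CPM in unexposed L3 and at 74.9, 76.8 and 74.5 CPM in exposed L3, all exposed libraries being higher. At L4 it was at 49.99, 56.1 and 49.8 CPM without Cd and at 41.2, 41.8 and 39.8 CPM with it, all exposed libraries being lower. The log2 difference was 0.28 (SE 0.074) at L3, 0.35 there without unexposed replicate 3, and -0.32 (SE 0.079) at L4. These are folds of 1.22 upward and 1.25 downward, with no overlap of libraries at either stage. The value at L4 minus that at L3 was -0.62 (SE 0.11). The L4 level was 0.20 lower than that at L3 in unexposed (SE 0.091) and 0.89 lower in exposed worms (SE 0.074).

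No gene of the mitochondrial stress list was called with Cd, where 3.63% of all genes were at L3 and 0.0432% at L4. *hsp-6* and *hsp-60*, the mitochondrial chaperone genes that report the response ZIP-3 restrains, had log2 differences of 0.16 (SE 0.080, adjusted p = 0.26) and -0.00 (SE 0.070, adjusted p = 0.98) at L3. At L4 the values were -0.01 (adjusted p = 0.94) for *hsp-6* and -0.17 (adjusted p = 0.30) for *hsp-60*. *timm-23*, a subunit gene of the inner membrane import channel, had a log2 difference of -0.21 (SE 0.074, adjusted p = 0.13) at L4. *atfs-1*, the bZIP factor that drives the response, had values of -0.22 (adjusted p = 0.15) at L3 and 0.06 (adjusted p = 0.70) at L4.

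*zip-8* was the lowest of the 8 genes and the one with the widest stage difference. It was at 6.79, 5.25 and 6.45 CPM in unexposed L3 and at 4.34, 4.22 and 5.30 CPM in exposed L3. At L4 it was at 0.447, 0.464 and 0.843 CPM without Cd, from 20, 17 and 29 counts, and at 0.326, 0.352 and 0.429 CPM with it, from 11, 14 and 19 counts. The L4 level was 3.34 lower than the L3 level on the log2 scale (SE 0.29) in unexposed worms and 3.63 lower (SE 0.23) in exposed worms, or 10.1-fold and 12.4-fold. With Cd the log2 difference was -0.41 (SE 0.16) at L3, where the libraries overlapped, -0.37 there without unexposed replicate 3, and -0.62 (SE 0.37) at L4, where they did not. The L4 value moved between -0.81 and -0.27 as single libraries were left out, the latter without unexposed L4 replicate 3.

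**Figure D2:**
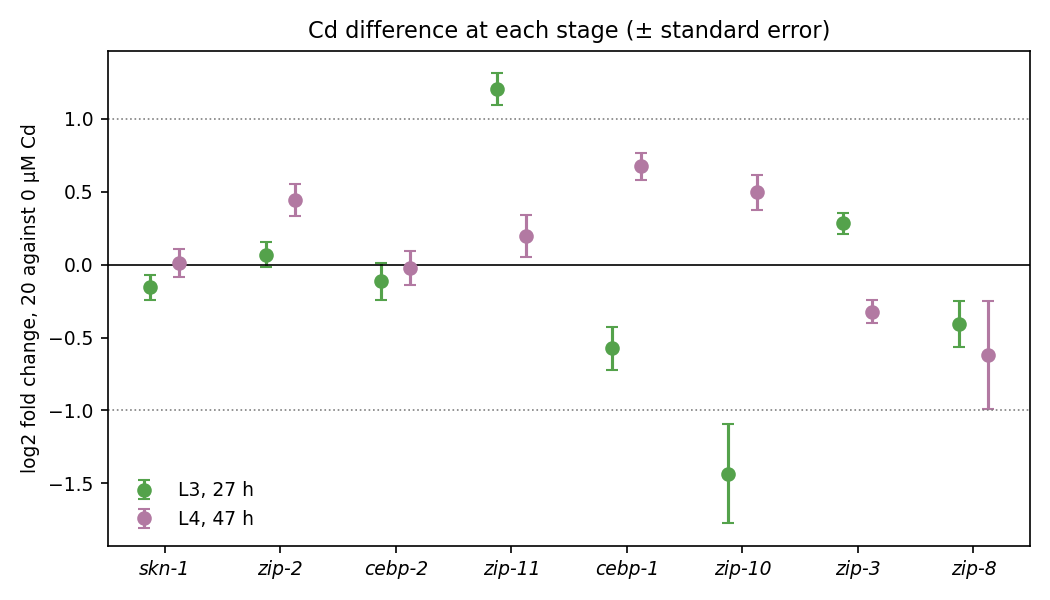
Log2 fold change of exposed against unexposed worms (vertical axis) for the 8 bZIP genes (horizontal axis), at L3 in green and at L4 in purple, with bars of 1 standard error from the edgeR fit of 3 against 3 libraries. Dotted lines mark the fold limit of 1. *zip-11* at 1.20 and *zip-10* at -1.43 lie outside the lines at L3, and no gene does at L4.

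Over the 8 genes, the spread of the Cd differences was wider at L3, from -1.43 to 1.20, than at L4, from -0.62 to 0.67. The threshold was an adjusted p of 0.05 together with a log2 change of 1 in either direction. At L3 1 of the 8 genes (*zip-11*) was past it, where 3.63% of all genes tested were, and 0.246% in the upward direction. *zip-10*, with the larger change but a wider spread, was not, although it was past it with the DESeq2 Wald test and without unexposed L3 replicate 3. The count for the 8 genes fell to 0 without unexposed L3 replicate 2 or exposed L3 replicate 1 or 2, fits in which only 5, 6 and 5 of all genes passed in place of 545. At L4 0 of the 8 were past it, where 0.0432% of all genes were (7 genes, against 181 with the DESeq2 Wald test), and 4342 genes had an unadjusted p under 0.05, 463 of them with a log2 change of 1 or more in size. The ranges of exposed and unexposed libraries were separate for 4 of the 8 genes at L3 (*zip-3* and *zip-11* higher, *zip-10* and *cebp-1* lower), which was true of 33.1% of all genes. At L4 they were separate for 5 of 8 (*zip-2*, *zip-10* and *cebp-1* higher, *zip-3* and *zip-8* lower), against 36.3% of all genes. For *zip-8* the highest exposed L4 library was at 0.429 CPM (19 counts) and the lowest unexposed one at 0.447 CPM (20 counts). The median log2 difference of the 8 genes was -0.14 at L3 and 0.10 at L4, beside 0.005 and 0.026 over all genes. By the adjusted p alone, 1 of the 8 passed at L3 and 0 at L4, beside 6.53% and 0.0556% of all genes. Since the genes were picked with these values known, nothing is read from these counts.

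Between the stages, the largest differences of the 8 genes were those of *zip-8* downward and *zip-10* upward. In unexposed worms 3 of the 8 were past the threshold (*zip-10* higher at L4, *zip-2* and *zip-8* lower), where 56.4% of all genes were. Without unexposed L3 replicate 3 or unexposed L4 replicate 3 the count was 2. In exposed worms 3 were past it (*zip-10* and *cebp-1* higher at L4, *zip-8* lower), where 48.1% of all genes were. The ranges of the stages were separate for 7 of 8 genes in unexposed worms and 8 of 8 in exposed worms, against 84.4% and 82.2% of all genes. By the adjusted p alone 6 and 7 of the 8 passed, beside 81.3% and 79.4% of all genes. Germline markers summed to 476 to 550 CPM over the L3 libraries and 1619 to 2562 CPM over the L4 libraries. Sums were lower at L4 for neuron markers (340 to 434 CPM at L3, 234 to 249 at L4), intestine markers (2620 to 3324, 1699 to 2095) and hypodermis markers (595 to 882, 148 to 221). Single genes differed from their sum. The neuron marker *snb-1* was at 148 CPM in unexposed L3 and 174 in unexposed L4, and the hypodermis marker *lin-26* at 61.6 and 71.7. The neuron sum of 434 CPM was that of exposed L3 replicate 1, where *ric-4* was at 178 CPM. The part of tissue growth in the stage differences was not tested.

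The Cd difference at L4 minus that at L3 was past the threshold for 3 of the 8 genes, where 6.23% of all genes were. By the adjusted p alone *zip-3* passed as well, which 11.6% of all genes did. *zip-10* and *cebp-1* had higher values at L4 and *zip-11* a lower one. Of the genes tested, 5.26% had a higher value than *zip-10*, 9.22% a higher one than *cebp-1* and 4.09% a lower one than *zip-11*. These ranks are a description, since the genes were picked with earlier results known. Some moulting and cuticle genes also moved in the direction of *zip-10* and *cebp-1*. *mlt-10* fell with Cd at L3 (log2 -1.58, adjusted p = 0.012), and was at 204, 193 and 138 CPM in unexposed L3 against 55.2, 52.0 and 71.2 CPM in exposed L3, replicate 3 being the lowest unexposed library as it was for *zip-10* and *cebp-1*. For *mlt-10* the Cd difference at L4 minus that at L3 was 2.46 (adjusted p = 0.0037). The L3 call of *mlt-10* was lost without unexposed replicate 2, without exposed replicate 1 or 2 and with a replicate block, over an adjusted p of 4.5e-05 to 0.092 with single libraries left out. *rol-6*, a cuticle collagen gene, fell with Cd at L3 by 1.75 on the log2 scale (adjusted p = 0.013). Its Cd difference at L4 minus that at L3 was 2.39 (adjusted p = 0.0079). The same omissions ended its L3 call, over an adjusted p of 0.00013 to 0.094. It was the only 1 of the 5 hypodermis markers called with Cd at L3, and the only 1 called for the Cd difference at L4 minus that at L3. With Cd at L3, *dpy-7*, another cuticle collagen gene, had a value of 0.69 (adjusted p = 0.29). The hypodermal GATA factor gene *elt-3* had 0.50 (adjusted p = 0.036), *elt-1* 0.12 and *lin-26* 0.11. Other genes of the same cycle, *mlt-11* and *noah-1*, stood instead in unexposed L3 replicate 3 at the level of exposed worms. *mlt-11* was at 342 and 323 CPM in unexposed replicates 1 and 2, at 1006 in replicate 3 and at 941 to 1008 CPM in exposed L3. The moulting list as a whole had 1 of 5 genes called with Cd at L3 (*mlt-10*) and 0 of 5 at L4. For the Cd difference at L4 minus that at L3, 2 of 5 were called (*mlt-10* and *mlt-8*). Without unexposed L3 replicate 3, *mlt-11* (1.55), *noah-1* (1.41) and *dpy-7* (1.34) were called higher with Cd at L3 as well. The part of the moulting cycle in the values of *zip-10* and *cebp-1* was not tested. Without unexposed L3 replicate 3 the Cd difference at L4 minus that at L3 was 2.22 for *zip-10*, 1.38 for *cebp-1* and -1.08 for *zip-11*.

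**Figure D3:**
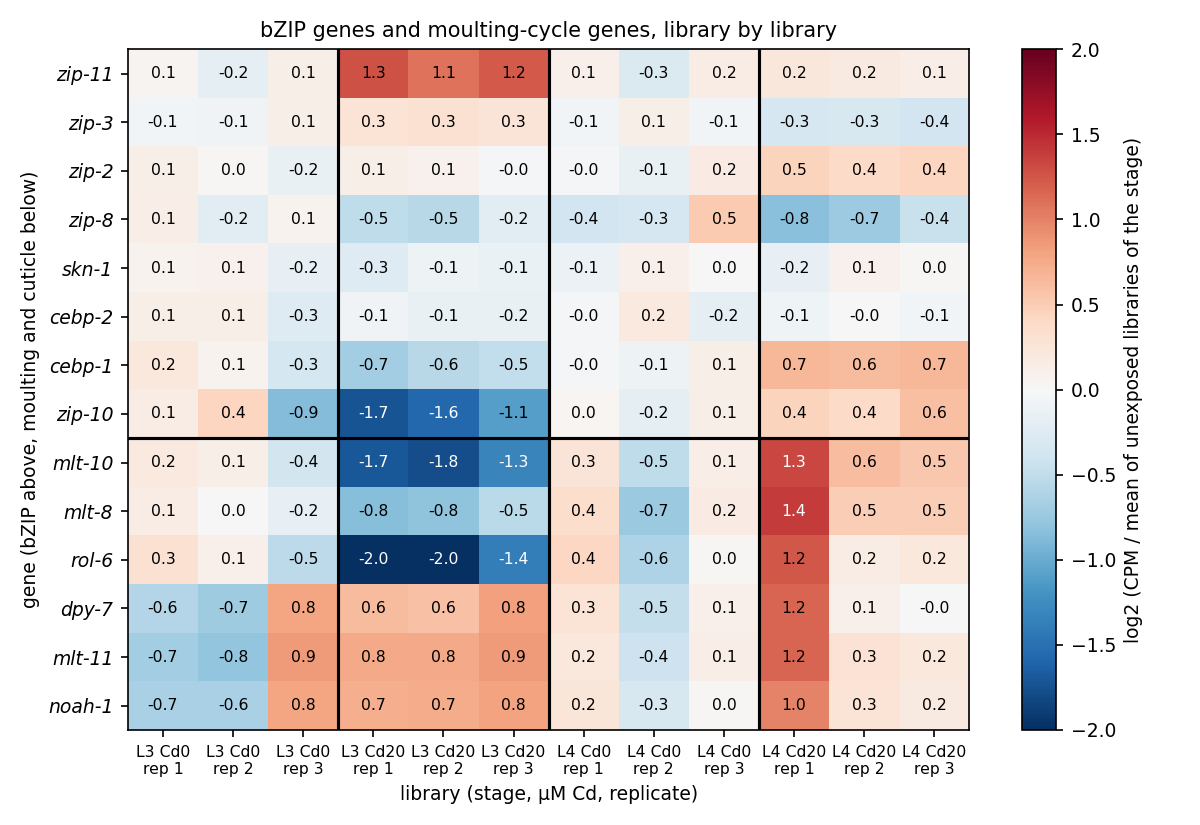
Log2 ratio of each library's level to the mean of the unexposed libraries of its stage, for the 8 bZIP genes (above the line) and 6 moulting and cuticle genes (below it), with the 12 libraries as columns and the value printed in each cell. Blue is lower and red higher, and colours end at -2 and 2. Unexposed L3 replicate 3 is low for *zip-10* and *cebp-1* and high for *dpy-7*, *mlt-11* and *noah-1*, and exposed L4 replicate 1 is the highest L4 library for all 6 moulting and cuticle genes.

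To describe which genes had the most similar pattern, log2 CPM was correlated over the 12 libraries after the mean of each stage was subtracted, among 14381 genes. These values reflect exposure and the spread of libraries within a stage, and all genes share the same libraries and scaling. The genes most like *zip-10* were C04F12.8 (Pearson r 0.976) and T19D2.1 (0.975), and 384 genes reached an r above 0.9. For *cebp-1* they were *tag-273* (0.985) and C29F5.1 (0.981), with 244 genes above 0.9. *zip-3* was closest to *rnf-1* (0.990) and *phf-31* (0.964), with 67 genes above 0.9. *zip-11* was closest to F44E7.5 (0.963) and *acbp-4* (0.953), *zip-2* to *paf-2* (0.945) and F27D9.7 (0.944), and 24 genes were above 0.9 for each. *skn-1* was closest to *acs-4* (0.962) and *akap-1* (0.959), and *zip-8* to *sti-1* (0.935) and *bpnt-1* (0.929). *cebp-2* had no gene above 0.9, its closest being *gst-29* and F54C1.1 (both 0.884). Among the 8 genes themselves, *cebp-1* and *zip-10* varied together (0.861), and *zip-3* varied against both (-0.966 with *cebp-1* and -0.826 with *zip-10*).

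Of 21 other bZIP genes on the list, 18 could be tested at L3 and 20 at L4. With all libraries in place, none was called with Cd at either stage or in the Cd difference at L4 minus that at L3. Shares of all genes called were 3.63% at L3, 0.0432% at L4 and 6.23% for that difference. The lowest value at L3 was that of *zip-6*, -0.77 (adjusted p = 0.30), and the highest that of *atf-8*, 0.81 (adjusted p = 0.29), whose level was 29.8 CPM in unexposed L3 replicate 3 against 10.04 and 8.29 CPM in the other unexposed L3 libraries. Without replicate 3 the value of *atf-8* was 1.64 and past the threshold (adjusted p = 6.1e-05). At L4 the highest was that of *zip-5*, 0.79 (SE 0.16, adjusted p = 0.080), with 5.64, 4.23 and 5.21 CPM in unexposed and 8.46, 8.08 and 9.33 CPM in exposed worms. *fos-1* and *jun-1*, which encode the partners of the AP-1 dimer, had values of 0.47 (adjusted p = 0.10) and 0.41 (adjusted p = 0.10) at L4. With the DESeq2 Wald test the adjusted p at L4 was 0.0031 for *zip-5*, 0.048 for *fos-1* and 0.056 for *jun-1*, and none was called. Between the stages in unexposed worms 3 of 20 rose (*ces-2*, *zip-4* and *zip-7*) and 6 fell, the largest fall being that of *atf-8* (-3.70, adjusted p = 0.00027).

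**Figure D4:**
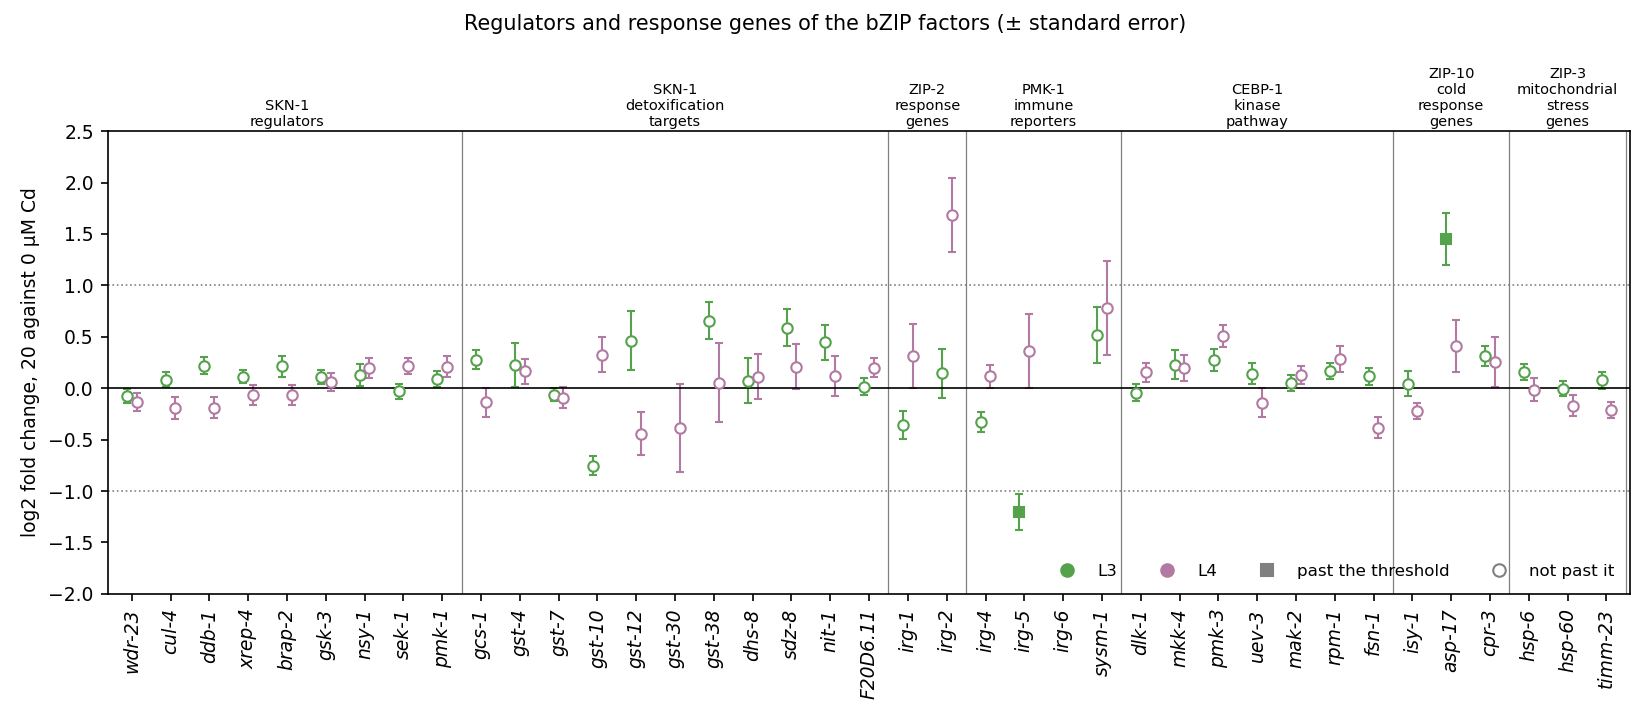
Log2 fold change of exposed against unexposed worms (vertical axis, ± standard error, 3 against 3 libraries) for the genes of the regulator and response lists (horizontal axis, grouped by list), at L3 in green and L4 in purple. Filled squares passed the threshold and open circles did not, dotted lines mark the fold limit of 1, and *irg-6* and *gst-30* at L3 have no point because they were not tested. The 2 squares are *irg-5* at -1.21 and *asp-17* at 1.45, both at L3.

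Over all 60 regulator, response and other bZIP genes, 2 of the 55 tested were called with Cd at L3 (1 up, 1 down) and 0 of 58 at L4. In the Cd difference at L4 minus that at L3, 2 of 58 were called. The shares of all genes were 3.63%, 0.0432% and 6.23%. At L4 no listed gene had an edgeR adjusted p of 0.05 or less. With the DESeq2 Wald test 5 did, and 1 of them was called, *irg-2*. Between the stages themselves 19 of 58 were called in unexposed and 15 of 57 in exposed worms, beside 56.4% and 48.1% of all genes.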

How the data were processed

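Poly-A RNA of 12 whole-worm samples was sequenced as paired ends. Per the labels and the methods of the study, the authors trimmed reads with Trimmomatic 0.36, mapped them to WBcel235 with STAR 2.5.2b and counted reads per gene with featureCounts of Subread 1.5.2. The deposited values are whole-number counts per gene and library, without normalization and without pooling of replicates. The annotation release, strand setting and treatment of reads mapping to several places are not given in the sources used here. A row without a gene name, 0.0148% to 2.01% of a library, was left out.

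Groups were taken from sample titles. A source field of the exposed samples names a Cd level of 0, against their titles and treatment, and *mtl-1* was checked for that reason. Files of a group were compared for duplicates, and all pairs differed by more than sampling noise, the closest being exposed L4 replicates 2 and 3 (chi-square per degree of freedom 3.33, the others 13.1 to 99.2).

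Counts were analysed in R 4.3.3 (edgeR 4.0.16; DESeq2 1.42.0 as the alternative; limma 3.58.1 loaded by edgeR). Genes passing filterByExpr were fitted with glmQLFit and tested with glmQLFTest after TMM scaling, adjusted by Benjamini-Hochberg over all genes tested, and called with the study's threshold (adjusted p up to 0.05, log2 change of 1 or more in size). The study applied that threshold to DESeq2 and its Wald test. With Cd, that test called 774 genes at L3 and 181 at L4 here, against 545 and 7 with edgeR. Each comparison of 2 groups used its own 6 libraries, and the difference between Cd effects used all 12. A standard error is the log2 change divided by the root of the F statistic. CPM values use TMM factors over all libraries, and log2 CPM used a prior count of 2. All 8 genes passed the filter in every comparison. In unexposed L4 replicate 1, 20 counts correspond to 0.447 CPM, so *zip-8* at L4 has wide errors. The scripts were tested on simulated data.

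The 8 genes and the gene lists were chosen with earlier results of these data known. Genes named are the 8, the listed genes called in a Cd comparison, those whose role is described, the largest change of each list, and for each of the 8 genes the 2 most correlated genes with a mean of at least 1 CPM. Samples were not paired by replicate number. *atf-4* was matched as *atf-5* and *sysm-1* as T24B8.5. Alternatives were DESeq2 size factors, the DESeq2 Wald test, no filter on low counts, a replicate block, all 12 libraries in each fit, the adjusted p alone, CPM without TMM factors and leaving out each library.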

Additional observations from a re-analysis of the deposited data

Results flagged for a closer look

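For 6 genes the Cd difference at L4 was set apart from that at L3 in the fit of all 12 libraries. For *zip-10* it was higher at L4 by 1.92 on the log2 scale, for *cebp-1* by 1.23, and for *zip-3* the value was -0.62. In these 3 genes every exposed library lay on one side of the unexposed libraries at L3 and on the other side at L4. For *zip-11* the value was -1.02, with exposed libraries apart from unexposed ones only at L3. The values of these 4 genes are a description, since they were picked with earlier results known. Among the listed genes, the value was 1.07 for *gst-10* (edgeR adjusted p = 0.0068) and 1.57 for *irg-5* (adjusted p = 0.041). For *gst-10*, 3 of 3 exposed libraries were lower at L3 and 3 of 3 higher at L4, and for *irg-5* the exposed libraries were lower at L3 and overlapped the unexposed ones at L4.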

How the results depend on the processing

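No called value changed sign in any alternative run. Of the 8 genes, 1 was past the threshold with Cd at L3, 2 with the DESeq2 Wald test, without a filter on low counts or with all 12 libraries in the fit, 0 with a replicate block, and 0 to 2 with single libraries left out. Of the listed genes, 2 were called at L3, 0 with a replicate block and 0 to 3 with single libraries left out. At L4 the count was 0 of listed genes, 1 with the Wald test, without the filter, with a replicate block or with all 12 libraries, and 0 in each fit without a library. Between the stages, the count of the 8 genes rose from 3 to 6 (unexposed) and 7 (exposed) with the adjusted p alone, and lay between 2 and 3 and at 3 with libraries left out. That of listed genes rose from 19 to 45 and from 15 to 42, and lay between 16 and 21 and between 15 and 17. For the difference between Cd effects, 2 listed genes were called, 1 with DESeq2 size factors, 4 with the Wald test or without the filter, 5 with the adjusted p alone and 0 to 4 with libraries left out, while the count of the 8 genes lay between 2 and 3. The cause was not tested. Over all genes, 545 were called at L3 against 5 with a replicate block and 5 to 1267 with libraries left out, and 7 at L4 against 181 with the Wald test, 267 without the filter, 387 with a replicate block and 93 with all 12 libraries. The labels give groups the same replicate numbers, and not every same-numbered pair deviated together, with correlations of -0.238, 0.122 and -0.232 at L3 and 0.551, 0.497 and -0.135 at L4. By the adjusted p alone the block moved the number of genes at L4 from 9 to 3402. By the same rule 1 of the 8 genes passed at L3, against 4 with the Wald test, 3 without the filter or with all 12 libraries and 0 with a replicate block, and 0 at L4, against 4 with the Wald test or a replicate block and 3 without the filter or with all 12 libraries. The replicate block left the count of the 8 genes at 0 at L4 and at 3 between stages and between Cd effects. DESeq2 size factors moved the median of all genes between unexposed stages from -0.069 to 0.070, between exposed stages from -0.014 to 0.093, and for the difference between Cd effects from -0.007 to -0.113. Of the fold changes of the 8 genes under the alternatives, 472 stayed within the spread of single libraries and 8 moved further, all between exposed stages with DESeq2 scaling. That spread is the root of the summed variances of log2 CPM within the groups compared, here without a prior count, and is not the SE of the fit. Of the group levels without TMM factors, 30 stayed within 1 SD and 2 moved further, those of *zip-3* (78.8 CPM) and *cebp-2* (11.4 CPM) in exposed L3. Depth limits *zip-8* at L4 (11 to 29 counts) and *irg-6* (at most 11 counts).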

Other observations

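Unexposed L4 replicate 2 was the lowest unexposed L4 library for some immune and detoxification genes and the highest for others, a pattern noticed after the values were seen and not tested. *irg-5* was at 10.6 CPM there against 28.6 and 34.3 CPM in the other unexposed L4 libraries, and T24B8.5 (*sysm-1*) at 5.60 against 18.8 and 27.9 CPM. *gst-38* was at 37.6 against 98.5 and 143 CPM, and *irg-2* at 1.45 against 3.22 and 3.55 CPM. In the other direction, *gst-30* was at 3.31 against 1.25 and 1.02 CPM, *gst-12* at 3.44 against 2.59 and 2.21 CPM, *nit-1* at 14.8 against 10.2 and 8.67 CPM and *irg-4* at 25.2 against 22.9 and 22.8 CPM. Among the bZIP genes, *zip-2*, *zip-10*, *zip-11* and *cebp-1* were also lowest of the 3 in this library, by smaller margins, while *skn-1*, *zip-3* and *cebp-2* were highest. The summed level of yolk and oocyte markers was 37121 CPM in this library and 19010 and 26884 CPM in the others.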
